A study of Mus musculus with 6 samples.

Results

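Monocytes are drawn out of blood into tissue by chemokines, and survive there and become macrophages on growth factors. 9 genes of these 2 systems were examined among the 20938 genes of the deposited table, taken by name for their known roles, with earlier results of these data known. They were the ligands Ccl2, Ccl7, Ccl8 and Ccl12, the receptor gene Ccr2, the ligand Cx3cl1 with its receptor gene Cx3cr1, and Csf1 with its receptor gene Csf1r. All 9 were in the table, and 8 of them reached a mean of 1 FPKM over the 6 libraries and were tested. FPKM is a level per transcript length and library depth. Cx3cl1 lay below that minimum and is given by its values.

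Bulk RNA was taken from tumours grown from B16F10, a mouse melanoma cell line, under the skin of male C57BL/6 mice, which were 6 weeks old. Control tumours (n = 3) were compared with tumours labelled YKL-40 overexpressing (n = 3), called YKL-40 libraries from here on, all collected on day 19 after injection into the left hind leg. YKL-40 is a secreted chitinase-like protein, and the study asks how it affects melanoma growth. All 6 libraries carry the genotype label WT, the sources used here give neither the control vector nor the number of clones, and nothing says that replicates are separate mice. The p-values may therefore measure technical spread only.

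The libraries were alike in summed FPKM, from 468605 to 490955. Their estimated depths ran from 0.953 to 1.33 relative to the first control. The mouse gene of YKL-40, listed as Chil1, was at 0.0644, 0 and 0.0242 FPKM in the controls and at 0 in all 3 YKL-40 libraries. A human or recoded sequence need not be counted on this mouse gene, so these values do not check the labels, and directions rest on the labels alone. Melanoma genes were abundant throughout, with summed levels of 8570 to 10027 FPKM over 7 markers in the controls, against 8577 to 10681 FPKM in the YKL-40 libraries.

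CCL2, CCL7, CCL8 and CCL12 are small secreted CC chemokines of the monocyte chemoattractant group. CCR2 on classical monocytes binds CCL2, CCL7 and CCL12, and is known for releasing these cells from bone marrow and bringing them into inflamed tissue and tumours. CX3CL1 is made as a membrane-bound chemokine that can be shed, and its receptor CX3CR1 marks patrolling monocytes and many tissue macrophages. CSF1 is the main growth factor of macrophages and acts through the receptor tyrosine kinase CSF1R.

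Mean levels of 7 of the 8 tested genes were higher in the YKL-40 tumours, but 0 of the 8 passed the test. Ccl8 had the smallest p and the largest ratio of means, and Cx3cr1 was the gene without a higher mean. The test was limma on log2(FPKM + 1), two-sided, with Benjamini-Hochberg adjustment over all 11241 tested genes and a threshold of 0.05, by which 0.436% of all tested genes were called. A difference above 0 was found for 7 of the 8, beside 42.2% of all tested genes, and the same 7 had an unadjusted limma p below 0.05, beside 8.71% higher genes with such a p among all tested. The groups did not overlap, with the YKL-40 libraries higher, for 3 of the 8, which were Ccl2, Ccl8 and Csf1, beside 10.3% of all tested genes. The median difference of the 8 was 1.36 on the log2 scale, and that of all tested genes was -0.04. These genes vary together, so the 8 are not separate observations. In bulk tumours, a change in the number of cells of a type and a change in RNA per cell cannot be told apart.

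**Figure D1:**
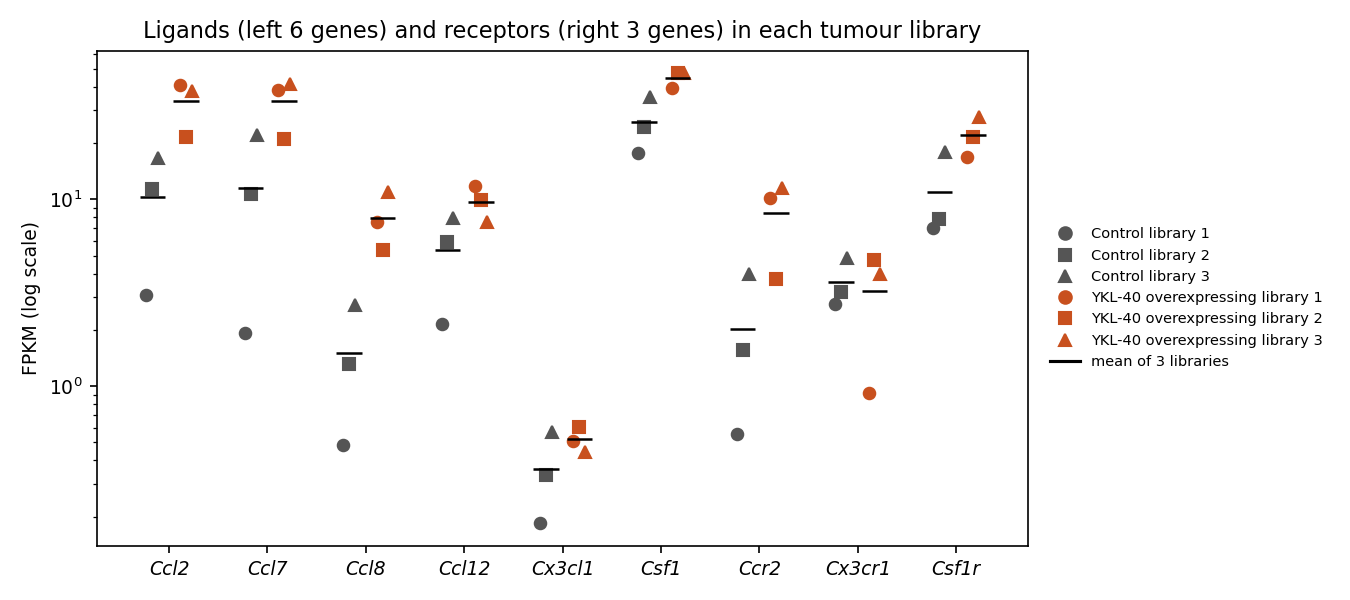
FPKM (log axis) of each of the 9 genes in each of the 6 libraries, with ligands on the left and receptors on the right; grey symbols are control libraries, orange symbols YKL-40 libraries, and bars the mean of 3 libraries. Control library 1 is the lowest point for 8 of the 9 genes, and for Cx3cr1 the lowest point is YKL-40 library 1 at 0.913 FPKM.

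The 4 monocyte chemoattractant genes lie in 1 cluster of 81.2 kb on chromosome 11 (mm10), in the order Ccl2 (82035577 to 82037452), Ccl7 (82045712 to 82047525), Ccl12 (82101845 to 82103399) and Ccl8 (82115185 to 82116799). Ccl11, the gene of the eosinophil chemokine eotaxin, lies between Ccl7 and Ccl12. The genes are related, but pairwise alignment of the GENCODE transcripts gave 65.5% to 68.7% identical bases among the 4, with no identical run longer than 23 bases. The RNA kit keeps no strand, and a gene model on the other strand, Gm17268, overlaps Ccl2, so reads of that pair cannot be told apart.

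The promoter stretches of Ccl8 and Ccl12 are shown because these adjacent genes of the cluster had the largest and the smallest log2(FPKM + 1) difference of the 4, and that of Csf1 because it was the most abundant of the 9 genes. Each is the 250 bases before the start in RefSeq (GRCm38.p6), from chr11:82114935-82115184 (+) for Ccl8, chr11:82101595-82101844 (+) for Ccl12 and chr3:107760470-107760719 (-) for Csf1. Capitals mark matches to the motifs searched.
Ccl8: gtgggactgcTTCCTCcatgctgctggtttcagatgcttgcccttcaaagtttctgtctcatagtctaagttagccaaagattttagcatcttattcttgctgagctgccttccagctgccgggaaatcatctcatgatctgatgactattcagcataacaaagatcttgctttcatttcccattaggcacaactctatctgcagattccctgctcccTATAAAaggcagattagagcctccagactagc
Ccl12: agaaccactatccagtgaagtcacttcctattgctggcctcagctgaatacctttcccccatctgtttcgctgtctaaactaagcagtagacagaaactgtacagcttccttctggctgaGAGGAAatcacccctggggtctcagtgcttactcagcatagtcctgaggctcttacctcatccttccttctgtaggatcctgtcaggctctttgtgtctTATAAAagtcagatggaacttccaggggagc
Csf1: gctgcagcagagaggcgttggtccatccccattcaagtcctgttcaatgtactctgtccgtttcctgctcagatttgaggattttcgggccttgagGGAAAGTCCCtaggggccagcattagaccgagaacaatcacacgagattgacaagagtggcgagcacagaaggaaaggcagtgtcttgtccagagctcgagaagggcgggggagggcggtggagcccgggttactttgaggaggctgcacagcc
The promoter table held 6 of the 9 genes. Ccl2, Ccl7 and Csf1r were not in it, so no motif was searched in them. A TATA box (TATAAA, the gene's strand only) was matched in 3 of the 6, namely Ccl8, Ccl12 and Cx3cl1, against 7.59% of 32851 promoters of the same length. It began 32 bases before the start in Ccl8 and 31 in Ccl12, but only 6 bases before it in Cx3cl1. The core of the PU.1 site, bound by the macrophage factor PU.1 (GAGGAA, both strands), was matched in the same 3 of 6, against 23.3%. An NF-kB consensus (both strands) was matched in Csf1 alone of the 6, 154 bases before the start, against 7.25%. The interferon elements GAS (TTCNNNGAA) and ISRE (TTTC NN TTTC) and the AP-1 site (TGANTCA), all on both strands, were matched in 0 of the 6, against 7.02%, 2.98% and 6.75%. No motif overlapped another in the sequences shown. A match is a description of letters and not a binding site.

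Ccl8 encodes MCP-2, a ligand of CCR8 in the mouse. It was at 0.481, 1.31 and 2.72 FPKM in the controls and at 7.59, 5.37 and 10.95 FPKM in the YKL-40 libraries. Every YKL-40 library lay above every control. The means were 1.50 ± 1.13 and 7.97 ± 2.81 FPKM (SD, n = 3 each), a ratio of 5.30. The difference was 1.89 on the log2(FPKM + 1) scale, with a standard error of 0.36 (limma, adjusted p = 0.078). Without control library 3, which had the highest control value, it was 2.23 and passed (limma, adjusted p = 0.0405). In that fit 1.86% of all tested genes passed. Ccl8 did not pass without any other single library.

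Ccl2 encodes MCP-1, the main CCR2 ligand. It was at 3.07, 11.4 and 16.6 FPKM in the controls and at 40.7, 21.7 and 38.1 FPKM in the YKL-40 libraries. The groups did not overlap, though control library 3 and YKL-40 library 2 were close. The mean was 3.24 times that of the controls, and the difference was 1.80 with a standard error of 0.52 (limma, adjusted p = 0.15). Without control library 1, the lowest library, the difference was 1.18.

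Ccl7, which encodes MCP-3, another CCR2 ligand, was close in level to its neighbour Ccl2. It was at 1.92, 10.7 and 22.1 FPKM in the controls and at 38.4, 21.1 and 41.3 FPKM in the YKL-40 libraries. Here control library 3 lay above YKL-40 library 2, so the groups overlapped. The difference was 1.85 with a standard error of 0.69 (limma, adjusted p = 0.229), and 1.02 without control library 1.

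Ccl12 encodes MCP-5, a mouse CCR2 ligand. It was at 2.14, 5.93 and 7.94 FPKM in the controls and at 11.7, 9.87 and 7.53 FPKM in the YKL-40 libraries. YKL-40 library 3, among the highest for the other 3 chemokines, was the lowest of its group here and lay below control library 3. The difference was 0.87 with a standard error of 0.37 (limma, adjusted p = 0.277), and 0.42 without control library 1.

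Ccr2 (chromosome 9, 124101918 to 124109140) encodes the receptor of CCL2, CCL7 and CCL12. It was at 0.556, 1.57 and 3.97 FPKM in the controls and at 10.2, 3.73 and 11.4 FPKM in the YKL-40 libraries. YKL-40 libraries 1 and 3 lay above all controls, and library 2 lay just below control library 3. The mean was 4.16 times that of the controls, and the difference was 1.68 with a standard error of 0.49 (limma, adjusted p = 0.155). It ran from 1.28 to 2.12 when single libraries were left out and passed in none of those fits.

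Csf1 (chromosome 3, 107741048 to 107760469) was the most abundant of the 9 genes in both groups. It was at 17.7, 24.5 and 35.4 FPKM in the controls and at 39.6, 47.3 and 47.2 FPKM in the YKL-40 libraries. The groups did not overlap. The means were 25.8 ± 8.93 and 44.7 ± 4.44 FPKM (SD, n = 3 each), and the difference was 0.82 with a standard error of 0.23 (limma, adjusted p = 0.142). Without control library 3 it was 1.06 and passed (limma, adjusted p = 0.0442), in the fit where 1.86% of all tested genes did.

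Csf1r (chromosome 18, 61105572 to 61131139), the CSF1 receptor gene and a general mark of macrophages, was at 7.04, 7.83 and 17.9 FPKM in the controls. It was at 16.9, 21.7 and 27.7 FPKM in the YKL-40 libraries, so that control library 3 lay within their range while the other two controls lay below it. The difference was 1.04 with a standard error of 0.33 (limma, adjusted p = 0.183). Without control library 3 it was 1.43 and passed (limma, adjusted p = 0.043), in the same fit with 1.86% of all tested genes.

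Neither gene of the CX3CL1 pair had groups apart. Cx3cr1 (chromosome 9, 120048683 to 120068296) was at 2.73, 3.21 and 4.87 FPKM in the controls and at 0.913, 4.75 and 3.999 FPKM in the YKL-40 libraries. The groups overlapped, and YKL-40 library 1 stood well below all other libraries. The difference was -0.25 with a standard error of 0.41 (limma, adjusted p = 0.789), and 0.25 without YKL-40 library 1, so its sign rests on that library. Cx3cl1 (chromosome 8, 94772180 to 94782427), the ligand gene, was at 0.184, 0.333 and 0.569 FPKM in the controls and at 0.508, 0.605 and 0.446 FPKM in the YKL-40 libraries. These low values overlapped (exact two-sided permutation p = 0.3, where 3 against 3 libraries cannot go below 0.1).

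**Figure D2:**
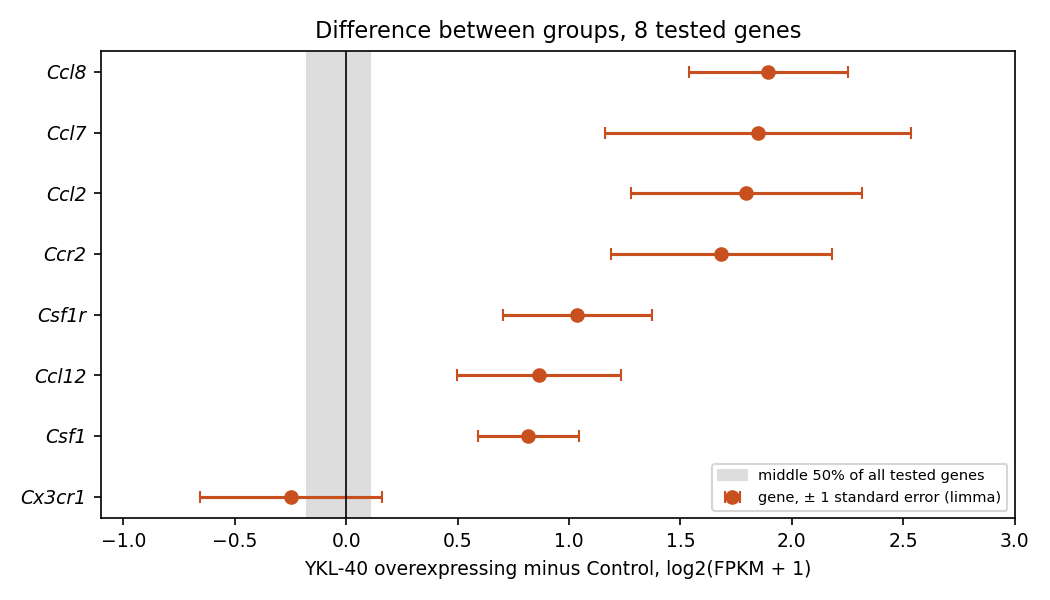
Mean of the YKL-40 libraries minus that of the control libraries on the log2(FPKM + 1) scale for the 8 tested genes, with 1 standard error from limma; the grey band is the middle 50% of all tested genes. Ccl8, Ccl7, Ccl2 and Ccr2 lie between 1.68 and 1.89, Csf1r, Ccl12 and Csf1 between 0.82 and 1.04, and Cx3cr1 at -0.25 with an error bar that includes 0.

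In order of mean FPKM, the controls had Csf1, Ccl7, Csf1r, Ccl2, Ccl12, Cx3cr1, Ccr2, Ccl8 and Cx3cl1. Ccl7, Csf1r and Ccl2, at 11.6, 10.9 and 10.3 FPKM, differed by less than their SDs of 6.07 to 10.10 FPKM. In the YKL-40 libraries the order was Csf1, Ccl7, Ccl2, Csf1r, Ccl12, Ccr2, Ccl8, Cx3cr1 and Cx3cl1. Ccl7 and Ccl2 were at 33.6 and 33.5 FPKM, and Ccr2 and Ccl8 at 8.46 and 7.97 FPKM, both pairs closer than their spread. Cx3cr1, above Ccr2 and Ccl8 in the controls, lay below both of them in the YKL-40 group.

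Markers of other cell types were also unequal between the groups. The summed level of 12 macrophage markers was 89.8 to 282 FPKM in the controls, against 309 to 452 FPKM in the YKL-40 libraries. Of 11 tested markers 0 passed (limma), 7 had an unadjusted p below 0.05 and all 11 had a difference above 0. Among all tested genes 8.71% were higher with such a p and 42.2% had a difference above 0. These differences were unequal, from 0.0012 for Mertk to 1.80 for C1qa. C1qa, a complement gene of macrophages, had means of 22.2 ± 9.82 and 76.2 ± 20.0 FPKM (SD, n = 3 each), while Lyz2, the lysozyme gene, was the most abundant at 72.9 ± 48.97 and 122 ± 8.21. The 9 classical monocyte markers summed to 8.94 to 46.2 and 45.0 to 71.3 FPKM, and 0 of 8 tested passed in limma (5 with an unadjusted p below 0.05). Plac8 had the largest difference of that list, 2.36 with a standard error of 0.51. The 4 non-classical monocyte markers summed to 0.849 to 2.03 and 3.53 to 6.83 FPKM. Neither of the 2 tested, Spn and Itgal, passed in limma (both with an unadjusted p below 0.05).

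Fibroblasts are a common source of CCL2 and CSF1 in tumours. Their 7 markers summed to 30.4 to 244 FPKM in the controls, against 221 to 404 FPKM in the YKL-40 libraries. In limma 0 of the 7 passed the threshold and 6 were higher with an unadjusted p below 0.05, beside 8.71% of all tested genes. Endothelial markers summed to 36.6 to 78.3 and 44.4 to 70.2 FPKM (0 of 5 passed in limma, 1 with an unadjusted p below 0.05). Skeletal muscle markers went the other way, with sums of 34.4 to 146 in the controls, against 4.27 to 23.0 FPKM in the YKL-40 libraries (0 of 7 passed in limma, 6 lower with an unadjusted p below 0.05, beside 9.24% of all tested genes). The part of these cell types in the differences of the chemokine genes was not tested.

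Among lymphoid and other cells, T cell markers summed to 0.432 to 1.19 and 3.61 to 16.0 FPKM and NK cell markers to 0.145 to 0.466 and 1.04 to 3.80 FPKM. Dendritic cell markers summed to 2.11 to 4.61 and 5.89 to 11.03 FPKM. Of these 3 lists, 3 genes could be tested and 0 passed in limma. Of these genes 2 were higher with an unadjusted limma p below 0.05, beside 8.71% of all tested genes. Neutrophil markers summed to 0.268 to 13.9 and 1.44 to 6.56 FPKM, with Ly6g at 0 in all libraries. B cell markers summed to 0.615 to 1.37 and 0.639 to 1.28 FPKM, and adipocyte markers to 58.3 to 92.4 and 52.8 to 85.1 FPKM. Nearly all of the adipocyte sum was Fabp4, with means of 75.2 and 72.6 FPKM. The other adipocyte markers, Adipoq and Plin1, were at most at 1.48 and 1.14 FPKM in any library. Keratinocyte markers stayed at or below 0.119 FPKM in sum, with Krt14 at 0 in all libraries.

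To set each gene beside the macrophage level of its own library, the mean log2(FPKM + 1) of the 12 macrophage markers was subtracted. On this relative scale the groups overlapped for Csf1r, at 0.39 ± 0.26 in the controls, against 0.49 ± 0.10 in the YKL-40 libraries (SD, n = 3 each; exact two-sided permutation p = 0.8). Csf1 was at 1.62 ± 0.11 and 1.50 ± 0.16 (exact two-sided permutation p = 0.4), and Ccl12 at -0.54 ± 0.29 and -0.61 ± 0.58 (p = 0.9). Ccl2, Ccl7 and Ccr2 had relative differences of 0.85, 0.91 and 0.74 with overlapping groups (exact two-sided permutation p = 0.3, 0.3 and 0.4). These 3 values changed in size when single libraries were left out, though each kept its direction. Without control library 1 that of Ccl7 was 0.37 and that of Ccl2 0.53, and without YKL-40 library 1 they were 0.62 and 0.53. Ccr2 was at 0.39 without YKL-40 library 1 and at 1.23 without YKL-40 library 2.

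On the same scale the groups did not overlap for Ccl8, which was higher, and for Cx3cr1 and Cx3cl1, which were lower in the YKL-40 libraries. The marker mean also had groups that did not overlap. The share of all tested genes that did not overlap on this scale was not computed. Ccl8 was at -1.92, -1.85 and -1.78 in the controls and at -0.58, -1.44 and -0.67 in the YKL-40 libraries, all above the controls. Cx3cr1 was at -0.59, -0.98 and -1.12 in the controls and at -2.74, -1.59 and -1.93 in the YKL-40 libraries, all below the controls. The differences were 0.95 and -1.19, each with an exact two-sided permutation p of 0.1, the smallest p these 6 libraries allow. Without YKL-40 library 1 the Cx3cr1 difference was -0.86. Before subtraction the Cx3cr1 groups overlapped, with a difference of -0.25, while the marker mean differed by 0.94. Most of the relative difference of Cx3cr1 is therefore that of the markers. With Csf1r in place of the marker mean, the differences were 0.86 for Ccl8 and -1.29 for Cx3cr1. Both sets of groups again did not overlap, but Csf1r itself differed by 1.04. With a pseudocount of 0.01 the Ccl8 difference was 1.53. Cx3cl1 had a relative difference of -0.78 (exact two-sided permutation p = 0.1), but with Csf1r as the reference it was -0.87 and the groups overlapped (exact two-sided permutation p = 0.2). Its own level on the log2(FPKM + 1) scale differed by 0.17, and the subtracted marker mean by 0.94, so most of this relative difference is that of the markers.

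**Figure D3:**
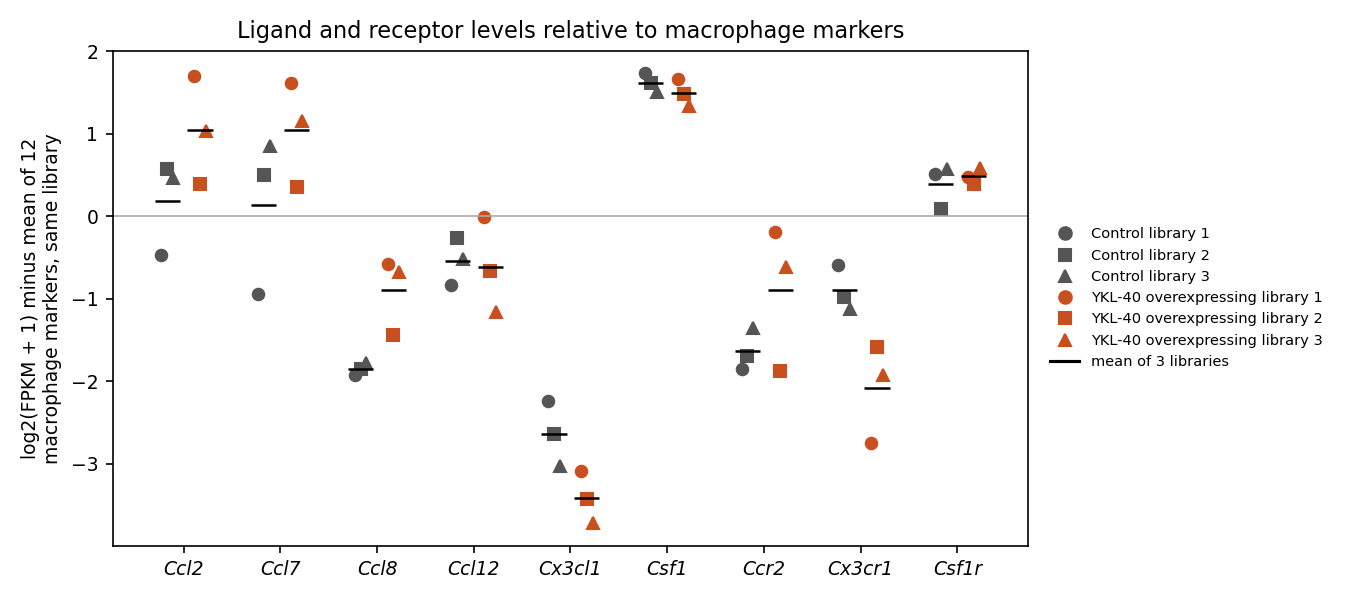
Level of each gene as log2(FPKM + 1) minus the mean of 12 macrophage markers in the same library, for 3 control (grey) and 3 YKL-40 (orange) libraries, with bars at the mean. For Csf1 and Csf1r the groups overlap. On this relative scale Ccl8 is higher and Cx3cr1 and Cx3cl1 are lower in all 3 YKL-40 libraries. Before subtraction the groups of Cx3cr1 and of Cx3cl1 overlapped.

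Other genes of the same systems were read from lists. Of 17 further myeloid chemokine and receptor genes, 12 were tested. None of these 12 passed in limma, 8 were higher with an unadjusted p below 0.05 and 5 were higher with groups that did not overlap. Among all tested genes these shares were 8.71% and 10.3%. The median difference of the 12 was 1.40. Ccl6, a myeloid CC chemokine and the most abundant of them, was at 5.38, 14.8 and 39.3 FPKM in the controls and at 100.5, 53.1 and 91.9 FPKM in the YKL-40 libraries. Its difference was 2.32 with a standard error of 0.61 (limma, adjusted p = 0.126). Cxcl12, the CXCR4 ligand, had means of 3.82 ± 1.72 and 19.5 ± 9.32 FPKM, and Ccl11, within the cluster on chromosome 11, 1.60 ± 1.02 and 6.35 ± 2.39 FPKM (SD, n = 3 each), both with groups that did not overlap.

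Of 13 other growth factor and receptor genes, 7 were tested and 0 passed in limma. Of the 7, 4 were higher with an unadjusted limma p below 0.05, beside 8.71% of all tested genes. The median difference of the 7 was 0.57. Il3ra and Csf2ra, the alpha chains of the IL-3 and GM-CSF receptors, had differences of 0.68 and 0.57 with standard errors of 0.14 and 0.12. Csf2rb, the beta chain they share, was at 3.70 ± 2.39 and 12.5 ± 4.55 FPKM (SD, n = 3 each). Il3 was at 0 in every library. Il34, which encodes the other CSF1R ligand, was far below Csf1, at 1.10, 1.16 and 1.17 FPKM in the controls, against 1.43, 2.17 and 1.50 in the YKL-40 libraries. Il34 was picked once the values were known.

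Of 9 signalling genes downstream of CSF1R, 8 were tested, 0 passed in limma and 5 were higher with an unadjusted p below 0.05 (median difference 0.58). Among all tested genes 8.71% were higher with such a p. Dok2, an adaptor of blood cells, was at 1.17 ± 1.13 and 5.82 ± 1.90 FPKM, and Vav1, an exchange factor of blood cells, at 0.687 ± 0.418 and 2.08 ± 0.481 FPKM (SD, n = 3 each). Grb2, an adaptor that most cells make, was the most abundant and had a difference of 0.13. Of 10 myeloid transcription factor genes, 0 passed in limma and 6 were higher with an unadjusted p below 0.05 (median difference 0.65). Spi1, which encodes PU.1, was at 4.03 ± 2.11 and 11.2 ± 1.80 FPKM and Irf8, a monocyte and dendritic cell factor, at 2.91 ± 1.95 and 14.8 ± 6.01 FPKM (SD, n = 3 each), both with groups that did not overlap.

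Shedding by proteases releases CX3CL1 and CSF1 from the cell surface. Adam10, Adam17 and the ADAM17 regulator gene Rhbdf2 had a median difference of -0.06, ranging from -0.21 to 0.23. In limma 0 of these 3 passed the threshold and 0 had an unadjusted p below 0.05. Of 6 cytokine genes known to induce CCL2 or CSF1, only Il1b reached the minimum. It was at 0.0187, 0.522 and 2.47 FPKM in the controls and at 5.26, 1.02 and 2.59 in the YKL-40 libraries, overlapping (limma, adjusted p = 0.36). Of the other 5, all below the minimum, Tnf and Ifng had groups that did not overlap (exact two-sided permutation p = 0.1 each, the smallest possible). Tnf was at 0.0149, 0.244 and 0.187 FPKM in the controls and at 0.567, 0.292 and 0.468 FPKM in the YKL-40 libraries. Ifng, a cytokine of T and NK cells, was at 0, 0.0215 and 0 FPKM in the controls and at 0.2504, 0.235 and 0.695 FPKM in the YKL-40 libraries. Il1a, Il6 and Ifnb1 overlapped, with no value above 0.981 FPKM.

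**Figure D4:**
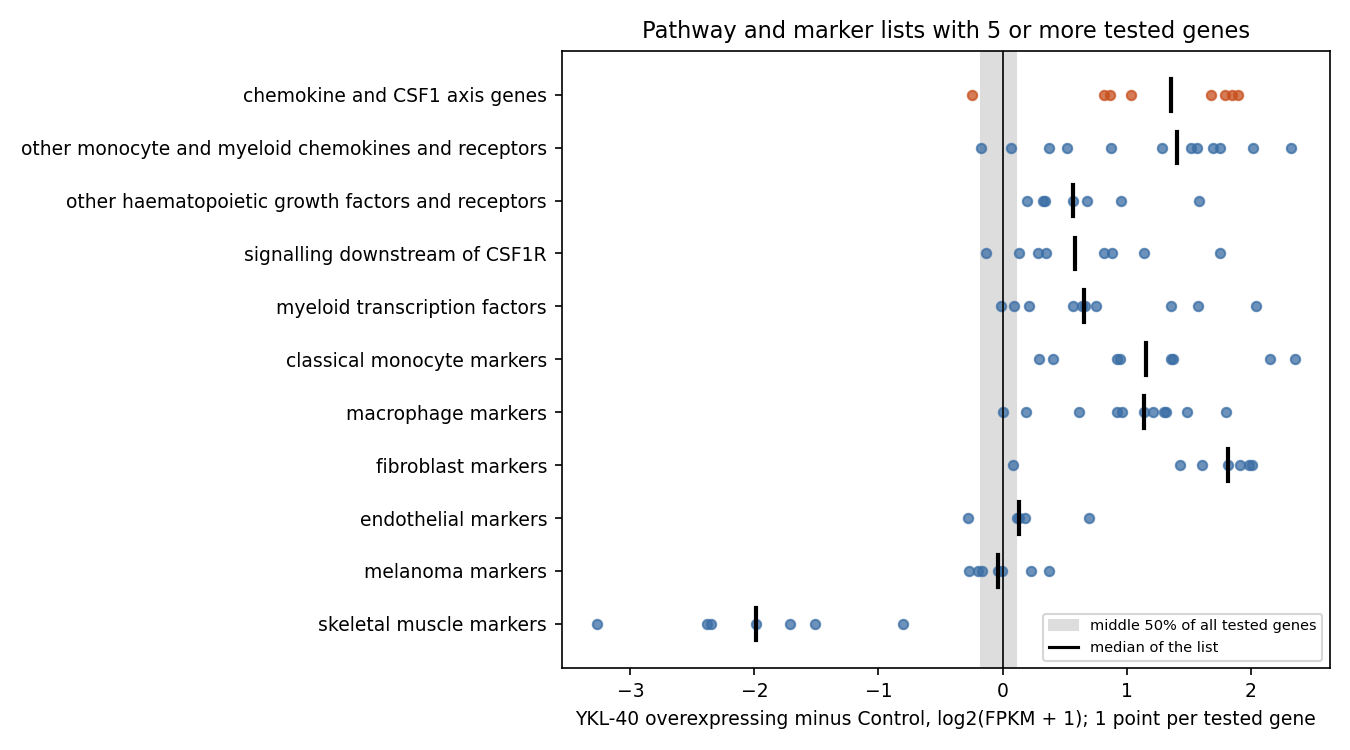
Differences on the log2(FPKM + 1) scale, 1 point per tested gene, for the chemokine and CSF1 axis genes (orange) and for each pathway or marker list with 5 or more tested genes (blue); black bars are medians and the grey band is the middle 50% of all tested genes. Medians are 1.36 for the chemokine and CSF1 axis genes, 1.14 for macrophage, 1.81 for fibroblast, -0.04 for melanoma and -1.99 for skeletal muscle markers.

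Profiles over the 6 libraries were compared by the root mean square difference of mean-centred log2(FPKM + 1) values, as a description. Tested genes with names starting with Gm and a digit, or ending in Rik, were left out. Among the genes nearest to Ccl2 were Fcer1g, an Fc receptor chain, and Lsp1, a leukocyte actin-binding protein. They were at 0.186 and 0.218, where the median over the genes compared was 1.17. Nearest to Csf1r were Slc11a1, a metal transporter of phagocytes, Xdh, xanthine dehydrogenase, and Nckap1l, a blood cell actin regulator, at 0.126, 0.126 and 0.142 (median 0.713). Nearest to Csf1 were Evi2, Igfbp7, a secreted IGF-binding protein made by vessels and stroma, and AI467606, at 0.0636, 0.0774 and 0.0783 (median 0.545).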

How the data were processed

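Bulk tumour RNA of 6 libraries was used, 3 per group, grouped by the sample titles; no column was left out. The deposited values are FPKM, 1 per gene and library, per the file headers; the tools listed in the submitters' processing notes are HISAT2, StringTie, bcl2fastq 2.0, limma and DESeq2, with mm10 as the build and no step given for any of them. Annotation and the summing of transcripts into genes are not given in the sources used here. Per the labels' protocols the TruSeq RNA v2 kit was used, which does not mark strand. Read numbers are unknown, so no counting interval could be given; relative depth was estimated as the modal ratio to the first control over genes under 0.3 FPKM.

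The 11241 genes averaging 1 FPKM or more were tested on log2(FPKM + 1), which understates changes of low genes, with limma 3.58.1 in R 4.3.3 (variance trend, Benjamini-Hochberg adjustment, threshold 0.05). The procedure was tested on simulated data. Single values had exact two-sided permutation tests. The 9 genes, the lists and the naming rule were chosen with earlier results of these data known. The rule names all 9 genes, the 2 tested genes of lowest p and the most abundant gene of each list, of which those that bear on no result are left out, and the 3 nearest profiles of Ccl2, Csf1 and Csf1r. Of the genes the rule names, 1 is not reported here. Positions and promoters came from RefSeq (GRCm38.p6) and transcripts from GENCODE M21. The other settings tried were a pseudocount of 0.1 or 0.01, testing unfiltered or at 5 FPKM and above, scaling to equal sums or by median ratios, no trend, array weights, a replicate block, muscle or macrophage level as covariate, and leaving out each library.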

Additional observations from a re-analysis of the deposited data

How the results depend on the processing

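Of the 9 genes, all but Cx3cr1 kept a difference above 0 in every alternative that could be run; Ccl8 had none with the 5 FPKM filter and Cx3cl1 only that without a filter. The number of the 9 genes past the threshold was 0. It was 5 with array quality weights (Ccl2, Ccl8, Ccr2, Csf1 and Csf1r), where 1111 of all tested genes (9.88%) passed. Without 1 library it was 0 to 3, and 3 only without control library 3 (Ccl8, Csf1 and Csf1r), where 1.86% of all tested genes passed. For all tested genes it was 49, but 1 without a filter, 0 with the skeletal muscle and 0 with the macrophage covariate (limma, with 541 and 819 genes below an unadjusted p of 0.05), and 0 to 238 without 1 library. Pathway list genes past the threshold were 0, and 21 with array weights and 0 to 11 without 1 library; marker list genes were 0, and 22 and 0 to 15. With the macrophage covariate the differences were 0.58 for Ccl2, 0.03 for Ccl7, 0.98 for Ccl8, 0.09 for Ccl12, 0.12 for Csf1, 0.71 for Ccr2, 0.04 for Csf1r and -1.18 for Cx3cr1, of which 0 passed (limma, 2 below an unadjusted p of 0.05). With the muscle covariate they were 1.62 for Ccl2, 1.92 for Ccl7, 1.89 for Ccl8, 1.19 for both Ccl12 and Csf1, 1.54 for Ccr2 and 1.69 for Csf1r, of which 0 passed (limma, 3 below an unadjusted p of 0.05). For each covariate the control and YKL-40 libraries did not overlap, so these fits can hardly tell the group from the covariate. The sign of Cx3cr1 reversed with array weights (0.0042), with the muscle covariate (0.38) and without YKL-40 library 1 (0.25, with a range of -0.55 to 0.25 over the fits without 1 library). Relative to macrophage markers, Csf1r reversed with a pseudocount of 0.01 (-0.015) and without control library 2, in a range of -0.056 to 0.18 without 1 library, and Ccl12 without control library 2 or YKL-40 library 3, in a range of -0.38 to 0.20. The cause was not tested.

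With the replicate number as a block, 120 of all tested genes passed, 1 of the 9 genes (Ccl8, adjusted p = 0.0408 in limma), 1 pathway list gene and 6 marker list genes. Same-numbered libraries had correlations of deviations of -0.0832, -0.185 and 0.0017, and differently numbered ones from -0.1375 to 0.2036. These values show no sign that the numbers pair the samples. With 3 libraries per group they cannot exclude it. Depth could be estimated only relative to 1 library, which limits what can be said of values near 0 such as those of Cx3cl1.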

Other observations

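Within each library, the linear FPKM ratios of some of the genes were examined after their values had been seen. The ratio of Ccl12 to Ccl2, genes of 1 chemokine cluster, was 0.697, 0.521 and 0.479 in the controls, against 0.288, 0.455 and 0.197 in the YKL-40 libraries, all below the controls. That of Ccl8 to Ccl2 was 0.157, 0.115 and 0.164 against 0.186, 0.247 and 0.287, all above them. The ratio of Ccl7 to Ccl2 overlapped, with 0.626 to 1.33 over the 6 libraries. For the first 2 ratios the exact two-sided permutation p on the log2 scale was 0.1, the smallest these libraries allow, and 8 ratios were examined.

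The ratio of Ccr2 to Cx3cr1 was 0.203, 0.489 and 0.816 in the controls, against 11.2, 0.785 and 2.86 in the YKL-40 libraries. YKL-40 library 2 overlapped the controls (exact two-sided permutation p = 0.2). These receptors mark classical and patrolling monocytes, but CX3CR1 also marks many tissue macrophages. The 4 non-classical monocyte markers summed to 0.849 to 2.03 FPKM in the controls, against 3.53 to 6.83 FPKM in the YKL-40 libraries. The ratio was not tested as a measure of patrolling monocytes and is not read as one. The ratio of Cx3cr1 to Csf1r was 0.389, 0.409 and 0.272 against 0.0541, 0.219 and 0.145, and did not overlap. Cx3cr1 alone overlapped, with a log2(FPKM + 1) difference of -0.25, beside 1.04 for Csf1r. Csf1 exceeded Csf1r in every library, by 1.71 to 3.12 times, and Il34 by 16.1 to 31.6 times, with overlapping groups for both.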
